A study of Mus musculus with 8 samples.

Results

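Sox7, Sox17 and Sox18 are the SoxF group of the Sox family, transcription factors that bind DNA through a high mobility group box. Their levels were followed in 4 sorted cell groups of the mouse embryo, taken at the stage at which blood stem cells first form in the large arteries. The members were chosen by name: every probe that the array files assign to Sox7, Sox17 or Sox18 was taken. That gave 4 probes, 1 for Sox7, 2 for Sox17 and 1 for Sox18, among 39429 probes in all, and 3 genes among 19543 genes tested. All 4 probes were well above background on all 8 arrays, so each of the 3 genes passed the filter on dim probes.

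SoxF factors are made by endothelial cells, where they act with Notch and vascular growth factor signals in arterial, venous and lymphatic development. Sox17 is known in mouse as an arterial gene and as a gene needed by endothelium that gives rise to blood, and it is known to bind regulatory sequence of Notch1. Sox7 is switched on early in blood-forming mesoderm and endothelium, and Sox18 is known upstream of Prox1 in lymphatic endothelium. In mouse, forced expression of Sox7, Sox17 or Sox18 in early blood progenitors is known to hold back their maturation into blood cells. That makes the passage from endothelium into hematopoietic clusters, the small groups of budding blood cells on the artery wall, the setting in which these genes are usually studied.

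All cells came from E10.5 conceptuses (mid-gestation) sired by Tg(Ly6a-GFP) males, whose mothers were F1 females of C57BL/6 and 129S1/SVImJ. In this transgene, green fluorescent protein (GFP) is made under regulatory sequence of Ly6a, whose product is known as Sca-1. Tissue of 100 embryos was pooled for the sort: the aorta-gonad-mesonephros (AGM) region, with the vitelline and umbilical arteries. The 4 groups were 30000 GFP+ cluster cells, 130000 GFP- cluster cells, 70000 GFP+ endothelial cells and 300000 GFP- endothelial cells, and no group received a treatment. All 4 groups carried CD31, VE-cadherin and ESAM on their surface, and cluster cells were Kit+ while endothelial cells were Kit-. GFP reports activity of the transgene, not of the endogenous Ly6a gene. The RNA of each pool was split into 2 fractions before amplification, so the 2 arrays of a group are technical replicates of 1 pool, and every p-value here measures only the spread between them.

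The probes are shown because Sox17 rests on 2 of them, which read separate stretches of its transcript and differ in whether they pass the test in endothelial cells. Only the first 30 bases of each 60-base probe are given, 5′ to 3′. The array files place them on mouse build mm9: the Sox7 probe at chr14:64569419-64569478 on the plus strand, the brighter Sox17 probe at chr1:4481503-4481562 and the other Sox17 probe at chr1:4481038-4481097, both on the minus strand, and the Sox18 probe at chr2:181404789-181404848 on the minus strand. By the same files they start at base 3115 of the Sox7 transcript, at bases 2576 and 3041 of the Sox17 transcript and at base 1312 of the Sox18 transcript. An exon annotation of that build was not used here. The GC content of the full probes was 40% for Sox7, 35% for both Sox17 probes and 45% for Sox18.
Sox7 probe: agtcccggatggatattaataatctcgtga
Sox17 brighter probe: ctcactgacttattccatttcttgaaagtg
Sox17 other probe: cccacttcccacaaaatttgcctttaattc
Sox18 probe: cttcctttcgcatatgtatgttagggtatg

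Levels are log2 of the scanner's processed signal minus the 75th percentile of the same array, so 0 is that percentile and only differences between arrays for the same probe are read. The 75th percentile ran from 708 to 1477 signal units over the 8 arrays, no spot was saturated, and 55.4% to 64.5% of spots were well above background. The sort labels held for their own genes: Ly6a was at -0.48 and -0.57 in GFP+ cluster cells, against -3.95 and -3.87 in GFP- cluster cells, and at 0.37 and 0.42 in GFP+ endothelial cells, against -3.40 and -3.95 in GFP- endothelial cells. Kit lay between 2.87 and 2.88 in GFP+ cluster cells and between 1.94 and 2.02 in GFP- cluster cells, and between 1.29 and 1.36 on the 4 endothelial arrays. Kit RNA was thus above background in cells sorted as Kit-. All 11 endothelium markers (Pecam1, Cdh5, Esam, Tie1, Tek, Kdr, Emcn, Eng, Egfl7, Cldn5 and Robo4) were well above background on all 8 arrays. In pooled RNA, fewer cells of a type and less RNA per cell cannot be told apart. The replicate number is also the slide: all first replicates shared one and all second replicates the other. Position on the slide cannot be told apart from group.

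Sox7 was lowest in GFP+ cluster cells and highest in GFP+ endothelial cells. Its log2 level was 1.43 and 1.29 in GFP+ cluster cells and 1.72 and 1.62 in GFP- cluster cells. Among endothelial cells it was 2.20 and 2.17 in the GFP+ group and 1.87 and 1.89 in the GFP- group. The arrays of the 4 groups did not overlap, and within a group the replicates differed by less than the step to the next group. Between pairs of groups sharing a cell class or GFP status, 66.3% to 80.7% of all genes did not overlap. The share of all genes without overlap over the 4 groups at once was not computed. Group means were 1.36 ± 0.10 in GFP+ cluster cells, 1.67 ± 0.07 in GFP- cluster cells, 2.18 ± 0.02 in GFP+ endothelial cells and 1.88 ± 0.02 in GFP- endothelial cells (SD, n = 2 arrays each).

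Sox17 was likewise lowest in GFP+ cluster cells. On its brighter probe the log2 level was 2.26 and 2.04 in GFP+ cluster cells and 2.67 and 2.63 in GFP- cluster cells. Among endothelial cells it was 2.79 and 2.68 in the GFP+ group and 2.50 and 2.49 in the GFP- group. On this probe the GFP+ cluster arrays stood apart below the other 6, and the GFP- cluster arrays lay between the GFP- endothelial arrays and the GFP+ endothelial arrays. On the other probe the log2 level was 1.09 and 1.14 in GFP+ cluster cells and 1.48 and 1.55 in GFP- cluster cells. Among endothelial cells it was 1.94 and 1.85 in the GFP+ group and 1.36 and 1.51 in the GFP- group. There the GFP+ endothelial arrays stood clear above the rest, and the GFP- cluster and GFP- endothelial arrays overlapped. Both probes gave the same order of group means, with r = 0.875 over the 8 arrays, which share pools and slides.

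In both cluster groups, but not in the endothelial groups, Sox18 showed the smallest spread between replicates. Its log2 level was 2.16 and 2.17 in GFP+ cluster cells and 2.63 and 2.64 in GFP- cluster cells. Among endothelial cells it was 2.76 and 2.79 in the GFP+ group and 2.73 and 2.70 in the GFP- group. The GFP+ cluster arrays were again the low ones, and the other 6 arrays lay within a narrow band without overlap of groups. Lack of overlap was common among all genes, as given above for pairs of groups. Over the 8 arrays r was 0.827 for Sox7 and Sox17, 0.885 for Sox7 and Sox18, and 0.887 for Sox17 and Sox18, which describes these arrays only, since all values share 4 pools.

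**Figure D1:**
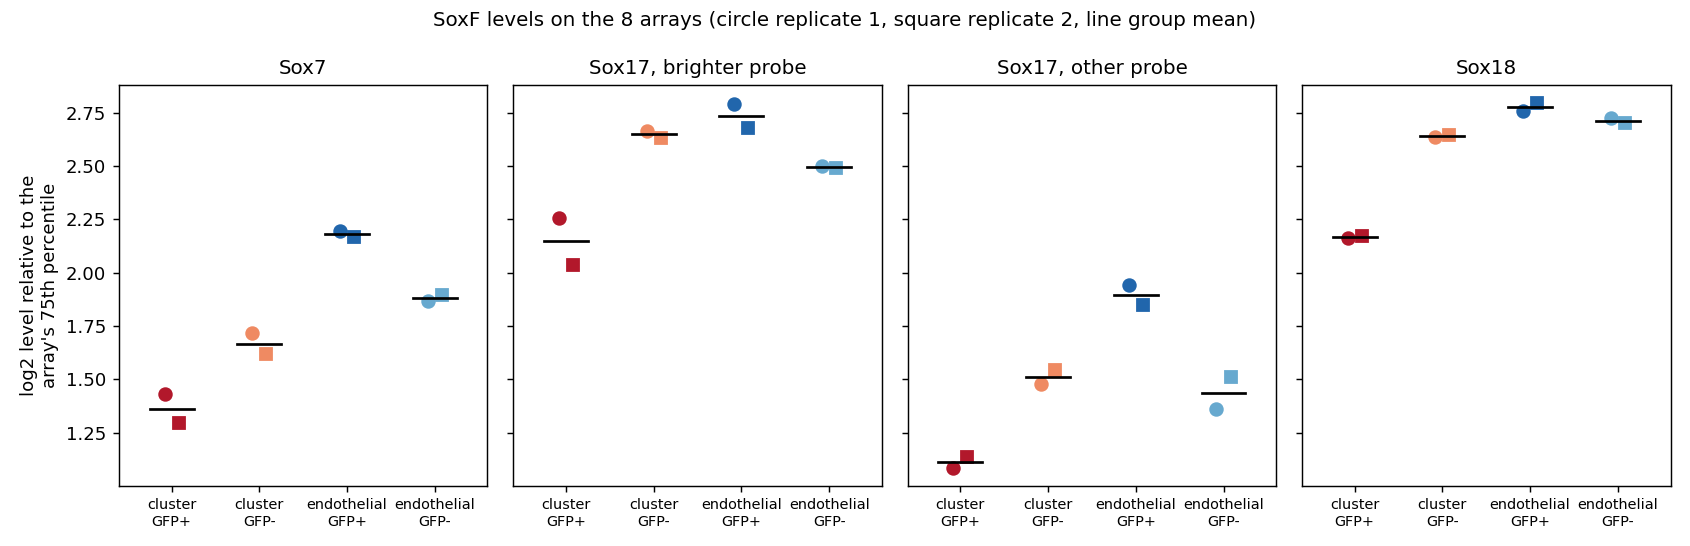
Log2 level relative to the array's 75th percentile (vertical axis) of the SoxF probes in the 4 sorted groups (horizontal axis), 1 panel per probe; circles are replicate 1, squares replicate 2 and lines group means. In each panel the GFP+ cluster arrays are the lowest and the GFP+ endothelial arrays the highest, and levels are to be compared within a panel only.

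Within cluster cells, GFP+ cells had less of all 3 SoxF RNAs than GFP- cells. Sox17 was at 0.706 of its GFP- level, a log2 difference of -0.50 ± 0.08 (SE; limma, Benjamini-Hochberg adjusted p = 0.00769). Sox18 was at 0.721, a log2 difference of -0.47 ± 0.04 (limma, adjusted p = 0.000719). Sox7 was at 0.809, a log2 difference of -0.31 ± 0.06 (limma, adjusted p = 0.016). Thus 3 of 3 members fell, where 20.9% of all genes tested were called lower and the median of all genes was -0.08. The groups did not overlap for any member, as was true of 67.2% of all genes. Each fall appeared within both slides, from -0.29 to -0.33 for Sox7, from -0.41 to -0.60 for Sox17 and at -0.47 on both for Sox18. The second Sox17 probe fell as well, by 0.40 on the log2 scale (limma, adjusted p = 0.00916).

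The Sox7 call in cluster cells was the least firm of the 3: it was lost without GFP+ replicate 2, at -0.24 (limma, adjusted p = 0.0604), and without GFP- replicate 1, at -0.26 (limma, adjusted p = 0.0873). Summed cell type markers moved with this comparison. As the sum of fold levels over the 75th percentile, red cell precursor markers were at 148.9 to 149.8 in GFP+ cluster cells, against 1126 to 1142 in GFP- cluster cells, and all 14 were called lower. General blood cell markers were at 40.6 to 41.1 in GFP+ cluster cells, against 10.91 to 11.03 in GFP- cluster cells, with 9 of 10 called higher. Macrophage markers were at 36.1 to 36.8 in GFP+ cluster cells, against 12.4 to 12.8 in GFP- cluster cells, with 14 of 14 called higher. Endothelium markers were at 260.3 to 262.1 in GFP+ cluster cells, against 334.7 to 344.4 in GFP- cluster cells, with 7 of 11 called lower. Mesenchyme and smooth muscle markers were at 31.8 to 32.5 in GFP+ cluster cells, against 38.4 to 38.7 in GFP- cluster cells. Of the 12 tested 8 were called lower and 2 higher. Lymphatic and venous markers were at 41.8 in GFP+ cluster cells, against 65.6 to 66.0 in GFP- cluster cells, with 7 of 8 called lower. Arterial markers were at 35.9 to 36.0 in GFP+ cluster cells, against 29.7 to 30.3 in GFP- cluster cells, with 6 of 14 called higher and 4 lower. Any part of these marker differences in the SoxF differences was not tested.

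In endothelial cells the SoxF genes did not fall with GFP. Sox7 was at 1.23 times its GFP- level in GFP+ cells, a log2 difference of 0.30 ± 0.06 (SE; limma, adjusted p = 0.0113). Sox17 differed by 0.24 ± 0.08 on the log2 scale on its brighter probe (limma, adjusted p = 0.0578), with a 95% interval from 0.03 to 0.45. Sox18 differed by 0.06 ± 0.04 (limma, adjusted p = 0.245), with a 95% interval from -0.04 to 0.17. So 1 of 3 members was called higher, where 18.1% of all genes were called higher and 33.4% lower. The groups did not overlap for any of the 3, as for 80.7% of all genes.

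The Sox17 result in endothelial cells depended on the probe and on the fit. Its other probe was called higher by 0.46 ± 0.07 on the log2 scale (limma, adjusted p = 0.0037). With the slide as a replicate block, which the paired replicate numbers allow, the brighter probe passed too (limma, adjusted p = 0.032). The Sox7 call was lost without GFP+ replicate 1 (limma, adjusted p = 0.0541) or without GFP- replicate 1 (limma, adjusted p = 0.0553). The scaling mattered for the direction of all genes here: the median of all genes was -0.13 and 35.2% of calls were higher, while with quantile normalization the median was -0.04, 48.3% of calls were higher, and Sox17 and Sox18 were called higher by 0.34 and 0.16 (limma, adjusted p = 0.0197 and 0.027). Relative to the median of all genes, the log2 differences were 0.43 for Sox7, 0.37 for Sox17 and 0.19 for Sox18.

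Summed cell type markers differed between the endothelial groups as well. Red cell precursor markers summed to 161.5 to 169.3 in GFP+ endothelial cells, against 744 to 767.5 in GFP- endothelial cells, and all 14 were called lower. Arterial markers, among them the gap junction gene Gja4 and the Notch ligand gene Dll4, summed to 84.0 to 84.3 in GFP+ endothelial cells, against 47.7 to 48.1 in GFP- endothelial cells. Of these 14 markers 10 were called higher and 3 lower. Macrophage markers summed to 12.6 to 13.1 in GFP+ endothelial cells, against 5.75 to 5.86 in GFP- endothelial cells, with 14 of 14 called higher. Endothelium markers summed to 331.4 to 359.3 in GFP+ endothelial cells, against 369.1 to 382.5 in GFP- endothelial cells, with 3 of 11 called higher and 2 called lower. Whether these marker differences have a part in the SoxF values was not tested.

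The GFP difference itself was not the same in the 2 cell classes. Taken as the log2 difference in cluster cells minus that in endothelial cells, it was -0.74 ± 0.12 for Sox17 (SE; limma, adjusted p = 0.00918), -0.61 ± 0.09 for Sox7 (limma, adjusted p = 0.00748) and -0.53 ± 0.06 for Sox18 (limma, adjusted p = 0.00359). All 3 members were called in this interaction, where 31.1% of all genes were called, 15.4% in the same direction, and the median of all genes was 0.05. Within each slide alone the value lay between -0.50 and -0.79 for every member. Sox7 was also called lower with GFP in cluster cells and higher with GFP in endothelial cells, a combination met by 450 of the 19543 genes (2.3%).

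**Figure D2:**
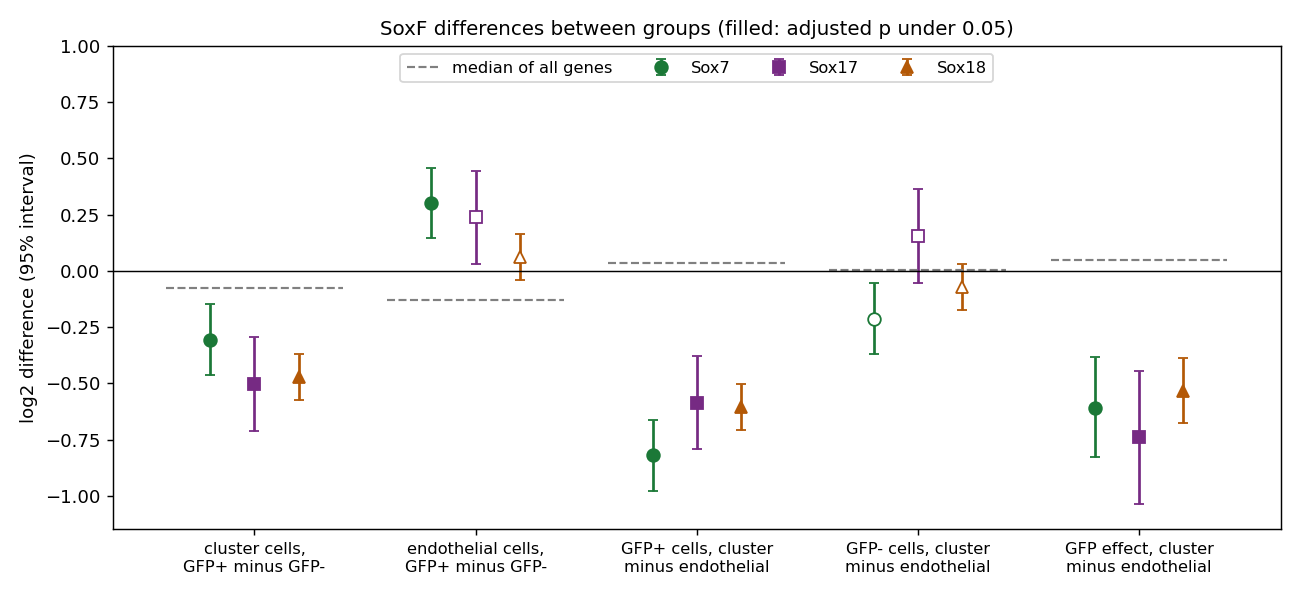
Log2 difference with its 95% interval (vertical axis) of Sox7, Sox17 (brighter probe) and Sox18 in 5 comparisons (horizontal axis); filled symbols passed the adjusted threshold of 0.05, and dashed lines are the median of all 19543 genes. All 3 genes lie below the line in GFP+ against GFP- cluster cells, in GFP+ cluster against GFP+ endothelial cells and in the interaction, and none passed between GFP- cluster and GFP- endothelial cells.

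Among GFP+ cells, cluster cells had less of every SoxF RNA than endothelial cells. Sox7 was at 0.566 of its endothelial level, a log2 difference of -0.82 ± 0.06 (SE; limma, adjusted p = 0.000368). Sox18 was at 0.657, or -0.61 ± 0.04 (limma, adjusted p = 0.000248), and Sox17 at 0.666, or -0.59 ± 0.08 (limma, adjusted p = 0.00282). The fall of 3 of 3 members stood beside 24.2% of all genes called lower, and groups that did not overlap beside 76.5% of all genes. The second Sox17 probe fell by 0.78 on the log2 scale (limma, adjusted p = 0.00056). General blood cell markers summed to 40.6 to 41.1 in GFP+ cluster cells, against 5.65 in GFP+ endothelial cells, and 10 of 11 endothelium markers were called lower. Arterial markers summed to 35.9 to 36.0 in GFP+ cluster cells, against 84.0 to 84.3 in GFP+ endothelial cells, with 13 of 14 called lower and 1 higher. Lymphatic and venous markers summed to 41.8 in GFP+ cluster cells, against 61.3 to 63.2 in GFP+ endothelial cells, with 6 of 8 called lower. Macrophage markers summed to 36.1 to 36.8 in GFP+ cluster cells, against 12.6 to 13.1 in GFP+ endothelial cells, with 14 of 14 called higher. Whether these differences in marker levels have a part in the SoxF values was not tested.

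Among GFP- cells, no SoxF gene passed the test between cluster and endothelial cells. Sox7 differed by -0.21 ± 0.06 on the log2 scale (limma, adjusted p = 0.0619), with a 95% interval from -0.37 to -0.06. Sox17 differed by 0.15 ± 0.08 (limma, adjusted p = 0.237; 95% interval -0.05 to 0.36) and Sox18 by -0.07 ± 0.04 (limma, adjusted p = 0.254; 95% interval -0.17 to 0.03). By limma 0 of 3 members were called at the adjusted threshold and 1 at an unadjusted p of 0.05, and 24.2% of all genes were called in either direction. Sox7 passed with variances moderated along a trend in signal, at an unchanged -0.21 (limma, adjusted p = 0.0162). The groups did not overlap on the 3 probes used for testing, as for 66.3% of all genes. A p that misses the threshold does not show that the levels are equal. Red cell precursor markers summed to 1126 to 1142 in GFP- cluster cells, against 744 to 767.5 in GFP- endothelial cells, with 14 of 14 called higher. General blood cell markers summed to 10.91 to 11.03 against 3.74 to 3.95, with 10 of 10 called higher. Arterial markers summed to 29.7 to 30.3 against 47.7 to 48.1, with 11 of 14 called lower and 0 higher. Any part of these marker differences in the SoxF values was not tested.

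The remaining pairs of groups complete the order of levels. GFP- cluster cells were below GFP+ endothelial cells for Sox7, by 0.51 ± 0.06 on the log2 scale (limma, adjusted p = 0.00246), and for Sox18, by 0.14 ± 0.04 (limma, adjusted p = 0.0409). Sox17 differed by -0.08 ± 0.08 on its brighter probe (limma, adjusted p = 0.436) and was called lower, by 0.38 on the log2 scale, on the other (limma, adjusted p = 0.00809). Here 15.7% of all genes were called lower, 66.7% of all calls were higher, and 51.4% were higher with quantile normalization. The Sox18 call was lost whichever 1 of the 8 arrays was left out (limma, adjusted p from 0.0605 to 0.16). GFP+ cluster cells were below GFP- endothelial cells for Sox18 at -0.54 ± 0.04, for Sox7 at -0.52 ± 0.06 and for Sox17 at -0.35 ± 0.08 on the log2 scale (limma, adjusted p = 0.000262, 0.0014 and 0.0169), where 31.4% of all genes were called lower. The Sox17 call of that pair was lost without GFP- endothelial replicate 1 or 2 (limma, adjusted p = 0.0733 and 0.0669). It was also lost with no filter and with only the groups compared, at an unchanged -0.35 (limma, adjusted p = 0.0525 and 0.0532), and with quantile normalization or the authors' table, at -0.20 in both (limma, adjusted p = 0.0846 and 0.0855).

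From high to low, group means ran GFP+ endothelial, GFP- endothelial, GFP- cluster and GFP+ cluster cells for Sox7 and Sox18. For Sox17 they ran GFP+ endothelial, GFP- cluster, GFP- endothelial and GFP+ cluster cells on both probes. Neighbours that did not pass the test were GFP- cluster and GFP- endothelial cells for all 3 genes, GFP+ and GFP- endothelial cells for Sox18, and GFP- cluster and GFP+ endothelial cells for Sox17 on its brighter probe. The step down to GFP+ cluster cells from the group next above them passed for each gene, with the exceptions given above for Sox7 and Sox17.

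Endothelium markers as a whole moved with some of these SoxF differences, those of the GFP+ cluster cells. The mean log2 level of the 11 markers was 3.54 and 3.57 in GFP+ cluster cells and 3.84 and 3.88 in GFP- cluster cells. Among endothelial cells it was 4.14 and 4.21 in the GFP+ group and 4.09 and 4.07 in the GFP- group. The GFP+ cluster arrays were the lowest, as for SoxF, and the GFP- cluster arrays came next, as for Sox7 and Sox18 but not Sox17, while the mean and the sum of the markers put the 2 endothelial groups in opposite order. When each array was scaled to that mean, an alternative chosen after seeing the data, the fall of Sox18 in GFP+ against GFP- cluster cells remained called at -0.17 ± 0.05 (limma, adjusted p = 0.03). Sox17 was then at -0.20 ± 0.10 (limma, adjusted p = 0.15) and Sox7 at -0.01 ± 0.08 (limma, adjusted p = 0.951).

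Scaled to the endothelium markers, GFP+ cluster and GFP+ endothelial cells differed by 0.03 for Sox17, 0.01 for Sox18 and -0.20 for Sox7 on the log2 scale (limma, adjusted p = 0.791, 0.854 and 0.0572). The interaction was then -0.35 for Sox17, -0.14 for Sox18 and -0.22 for Sox7 (limma, adjusted p = 0.081, 0.116 and 0.156). Sox7 in GFP+ against GFP- endothelial cells was at 0.21 (limma, adjusted p = 0.074). Sox17 was called higher in GFP- cluster than in GFP- endothelial cells, by 0.38 ± 0.10 (limma, adjusted p = 0.0318), and Sox18 higher in GFP- cluster than in GFP+ endothelial cells, by 0.18 ± 0.05 (limma, adjusted p = 0.0148), where under the main scaling it was lower. This scaling also moved the median of all genes, to 0.22 in cluster cells by GFP, -0.22 in endothelial cells by GFP, 0.65 between the GFP+ classes and 0.44 in the interaction.

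**Figure D3:**
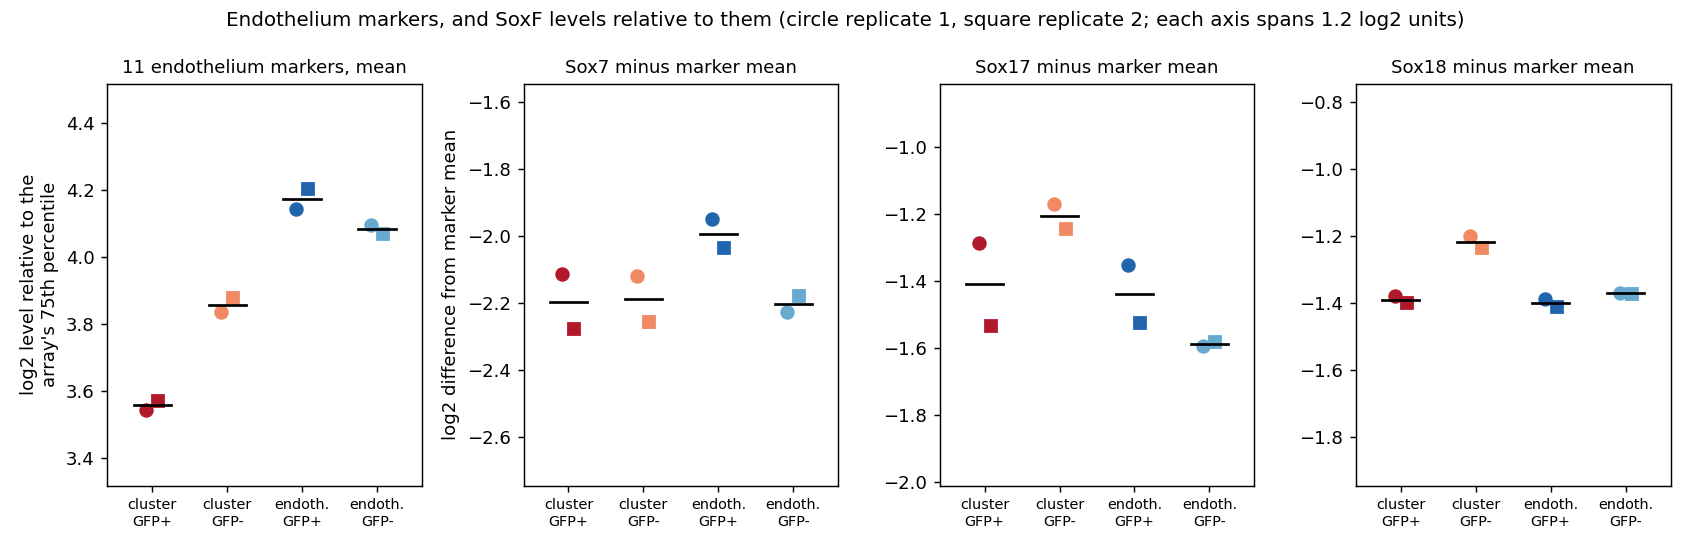
Left, mean log2 level of 11 endothelium markers relative to the array's 75th percentile; the other panels, log2 level of each SoxF gene minus that mean, for the 4 sorted groups (horizontal axis), with circles for replicate 1, squares for replicate 2 and lines for group means. After subtraction the GFP+ cluster and GFP+ endothelial arrays overlap for Sox17 and Sox18, and the GFP- cluster arrays are the highest for both.

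Genes whose pattern over the 8 arrays lay closest to each member were sought by the root mean square difference of log2 levels centred on their own mean, among 12176 named genes well above background on all arrays. Sec24d, a coat subunit of transport vesicles leaving the endoplasmic reticulum, was closest to Sox7 with a difference of 0.0359 (r = 0.995). It was followed by Gfod2, Slc37a3, Bcl6b and Lifr, from 0.0471 to 0.0561, of which Bcl6b is a transcription repressor known from endothelium and Lifr the receptor of leukemia inhibitory factor. Prr12 was closest to Sox17, with 0.0422 (r = 0.992), followed by Zfp36l1, Sgsm1, Lrrc58 and Myh10, from 0.0446 to 0.0559. Zfp36l1 is an RNA-binding protein that speeds decay of its target mRNAs, and Myh10 is a non-muscle myosin heavy chain. Piezo1, a mechanically gated ion channel of endothelium, was closest to Sox18, with 0.0226 (r = 0.996), followed by Aplp2, Map4, Bgn and Atp9a, from 0.033 to 0.0396. No gene stood in the list of more than 1 member. These correlations are over 8 arrays from 4 pools and describe these arrays only.

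Other Sox genes were more often called lower than higher with GFP in both cell classes, as were all genes. Of 17 other Sox genes 12 could be tested, and Sox2, Sox5, Sox6, Sox8 and Sox30 were not well above background on both arrays of any group. In GFP+ against GFP- cluster cells 6 of the 12 were called lower and the other 6 were not called, beside 20.9% of all genes called lower, with a median of -0.35 beside -0.08 for all genes. The SoxC genes Sox11, Sox12 and Sox4, known from progenitor cells of many tissues, fell by 0.75, 0.72 and 0.35 on the log2 scale (limma, adjusted p = 0.000587, 0.0182 and 0.00786). Sox1, known from neural progenitors, fell by 0.40 (limma, adjusted p = 0.00827), with another probe at -0.03. Sox9, a factor of cartilage and other lineages, fell by 0.85 (limma, adjusted p = 0.000476) but was well above background on 1 of 2 GFP+ arrays. Sox3 was not well above background in GFP+ cluster cells and was at least 1.61-fold lower there (limma, adjusted p = 0.0122).

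In GFP+ against GFP- endothelial cells 7 of 12 other Sox genes were called lower and the other 5 were not called, beside 33.4% of all genes called lower, with a median of -0.59 beside -0.13 for all genes. Sox3, Sox1, Sox10, Sox9 and Sox11 fell by 1.09, 0.86, 0.64, 0.54 and 0.26 on the log2 scale (limma, adjusted p from 0.000531 to 0.017). Sry, the testis-determining gene, and Sox15 fell by 1.15 and 1.12 (limma, adjusted p = 0.00288 and 0.0305), but each was well above background on only 1 of 2 GFP+ arrays. Among GFP+ cells, Sox9, Sox12, Sox11 and Sox13 were lower in cluster than in endothelial cells, by 0.73, 0.49, 0.47 and 0.45, and Sry and Sox1 were higher, by 1.68 and 0.41 (limma, adjusted p from 0.000599 to 0.0431). Scaled to the endothelium markers, 6 were higher there and 0 lower. Among GFP- cells only Sox9 was called, lower by 0.43 (limma, adjusted p = 0.0104). In the interaction 2 of 12 were called higher and 2 lower, where 15.7% of all genes were called higher and 15.4% lower. With the slide as a replicate block 4 were called lower in the interaction, and 2 between the GFP- classes.

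Endothelial genes tied to SoxF by earlier work, 20 in all, were called lower in 11 cases and higher in 2 with GFP in cluster cells, and 7 were not called, where 20.9% of all genes were called lower and 11.8% higher. The list was drawn up with results of these data known, and 5 of its genes are also endothelium markers and 15 stand in some marker list. The median in that comparison was -0.27 beside -0.08 for all genes; scaled to the endothelium markers, 3 were lower and 7 higher. Prox1 was called lower but was not well above background in GFP+ cluster cells. Among genes well above background in both groups, Cldn5, the tight junction gene, and Rasip1, needed for vessel lumens, fell most. They were lower by 0.66 and 0.55 on the log2 scale (limma, adjusted p = 0.00274 and 0.000824). Gja4, an arterial gap junction gene, was higher by 1.103 (limma, adjusted p = 0.00017), and Hey2, an arterial Notch target, was at least 1.57-fold higher, since it was not well above background in GFP- cluster cells (limma, adjusted p = 0.0139). In GFP+ cluster cells Hey2 was well above background on replicate 2 but not on replicate 1.

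In endothelial cells 9 of these 20 genes were called higher with GFP and 6 lower, beside 18.1% and 33.4% of all genes. The median was 0.14 beside -0.13 for all genes. Hey2 and Gja4 were higher by 1.94 and 1.23 on the log2 scale (limma, adjusted p = 0.00545 and 0.000188). Prox1 was called lower, at -1.01, but was well above background on only 1 of 2 GFP+ arrays. Kdr, the main receptor of vascular endothelial growth factor, and Notch1 fell by 0.34 each (limma, adjusted p = 0.00348 and 0.00922). A second Kdr probe was lower too, while a second Notch1 probe was at 0.65 and not called (limma, adjusted p = 0.0405 and 0.176). Notch4 and Nr2f2, a venous factor gene, were called lower with GFP in cluster cells and higher with GFP in endothelial cells. That made 2 of 20, beside 2.3% of all genes.

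Between the GFP+ classes 16 of the 20 were called lower in cluster cells and 2 higher, beside 24.2% and 26.1% of all genes. The median was -0.75 beside 0.03 for all genes. Hey1, a Notch target, and Gja4 were lower in cluster cells, at -1.56 and -1.495 on the log2 scale (limma, adjusted p = 7.92e-05 and 6.53e-05). Mef2c, a transcription factor gene, and Notch1 were higher by 0.52 and 0.43 (limma, adjusted p = 0.00227 and 0.00408), but the second Notch1 probe was at -1.05 and not called (limma, adjusted p = 0.0527). Between the GFP- classes 10 were lower, with Gja4 and Hey1 at -1.37 and -1.11, and 3 were higher, Prox1 at 1.35, Vcam1 at 0.44 and Nr2f2 at 0.42 (limma, adjusted p from 0.000244 to 0.00775). There 12.4% of all genes were called lower and 11.8% higher. In the interaction 12 were called lower and 2 higher, beside 15.4% and 15.7% of all genes. Among genes well above background in every group, Nr2f2 at -0.996 and the angiopoietin receptor gene Tek at -0.92 led the falls. Notch1 and Mef2c were called higher at 0.46 and 0.43 (limma, adjusted p from 0.00203 to 0.0245 over the genes named). The second Notch1 probe stood at -0.96 there and was not called (limma, adjusted p = 0.199).

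The 20 genes for inputs and partners of SoxF covered Wnt and Notch effectors, forkhead and Ets factors and Vegfa. In GFP+ against GFP- cluster cells 13 of 20 were called lower and 2 higher, beside 20.9% and 11.8% of all genes, with a median of -0.29 beside -0.08 for all genes. Etv2, the Ets factor that starts the endothelial and blood programme, fell by 1.81 on the log2 scale, and Lef1, a nuclear effector of Wnt signalling, by 1.17 (limma, adjusted p = 6.3e-05 and 8.59e-05). Vegfa, the vascular growth factor gene, and the histone demethylase gene Kdm6a were each higher by 0.19 (limma, adjusted p = 0.0374 and 0.0402), calls that several alternatives ended. With the slide as a replicate block 1 of these 2 was called, and 2 partner genes were called lower between the GFP- classes where the fit without it called 1.

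Between the endothelial groups 6 of the 20 were called higher with GFP and 6 lower, beside 18.1% and 33.4% of all genes, and the median was -0.02 beside -0.13 for all genes. Etv2 and Lef1 fell there too, by 1.61 and 0.92 on the log2 scale (limma, adjusted p = 0.000129 and 0.000253), and Vegfa was higher by 1.19 (limma, adjusted p = 0.000122). Maml2, a Notch coactivator gene, was higher by 0.80, but its other probe was called lower, by 0.62 (limma, adjusted p = 0.000593 and 0.0138). Elk3, Foxc2, Foxo1, Maml1 and Maml2 were called lower with GFP in cluster cells and higher with GFP in endothelial cells, 5 of 20, with a second Elk3 probe and a second Foxo1 probe doing the same, while another Elk3 probe was called in neither. The second Maml2 probe was called in the reverse directions, higher with GFP in cluster cells, by 0.61 (limma, adjusted p = 0.0222), and lower in endothelial cells. Of all genes 2.3% were called lower in cluster cells and higher in endothelial cells.

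Between the GFP+ classes 12 of 20 partner genes were called lower in cluster cells and 3 higher, beside 24.2% and 26.1% of all genes. The falls were led by the forkhead genes Foxc2 and Foxc1 at -1.01 and -0.68, while scaled to the endothelium markers 1 was lower and 13 were higher. Tcf7l2, a Wnt effector, Etv2 and Kdm6a were higher at 0.71, 0.49 and 0.33 (limma, adjusted p from 0.000219 to 0.00406), although 2 other Tcf7l2 probes were at 0.00 and -0.03. Between the GFP- classes Etv2, Maml2, Vegfa and Foxo1 were higher in cluster cells, by 0.69, 0.55, 0.37 and 0.24, and Lef1 was lower, by 0.42 (limma, adjusted p from 0.00351 to 0.0181). The second probes of Etv2 and Maml2, at 0.61 and 0.11, were not called (limma, adjusted p = 0.0964 and 0.623), while those of Vegfa and Foxo1 were called higher. In the interaction 15.4% of all genes were called lower. Of the 20, 10 were called lower there and 10 were not called, against 4 lower and 6 higher when scaled to the endothelium markers. In that comparison Vegfa stood at -0.998 (limma, adjusted p = 0.00166), and Maml2 at -1.09 on its brightest probe and 1.22 on the other (limma, adjusted p = 0.00214 and 0.00923).

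Genes of the blood programme, by contrast with SoxF, were mostly higher in cluster cells. Their list includes Kit, whose product was used to sort cluster from endothelial cells, so Kit is no separate result in counts between these classes. Between the GFP+ classes 16 of 20 were called higher in cluster cells, beside 26.1% of all genes, with a median of 1.31 beside 0.03 for all genes. Among genes well above background in both groups, the stem cell factors Myb and Hlf led, at 4.49 and 4.09 on the log2 scale (limma, adjusted p = 4.94e-06 and 0.000116). Between the GFP- classes 15 were called higher and 1 lower, beside 11.8% and 12.4% of all genes. Myb and Hlf stood there at 3.47 and 3.06, and Lmo2, an adaptor of early blood complexes, was lower at -0.29 (limma, adjusted p from 3.47e-05 to 0.0237). In GFP+ against GFP- cluster cells 15 were called higher and 2 lower, beside 11.8% and 20.9% of all genes. Gfi1 at 2.63 and Hlf at 2.41 led the rises, and the red cell factors Klf1 and Gata1 fell by 2.88 and 1.63 (limma, adjusted p from 2.41e-05 to 0.000697). Gfi1 is a repressor known to shut down endothelial genes as blood forms.

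Within endothelial cells 9 of 20 blood genes were called higher with GFP and 5 lower, beside 18.1% and 33.4% of all genes. The rises were led by Gfi1 at 2.98 and Spn, a surface sialoprotein gene of blood cells, at 1.92. Gata1, Klf1, Gfi1b, Erg and Lmo2 were lower, from -1.53 to -0.23 on the log2 scale (limma, adjusted p from 7.27e-05 to 0.022). In the interaction 11 of 20 were called higher and 2 lower, beside 15.7% and 15.4% of all genes. The rises were led among genes well above background in every group by Gfi1b at 1.715 and Runx1 at 1.08, although another Runx1 probe was at -0.02 (limma, adjusted p = 0.00126, 0.00429 and 0.896). Klf1 and Gfi1 were lower at -1.52 and -0.35 (limma, adjusted p = 0.00504 and 0.0467), and 1 of the 2 was called with the slide as a replicate block.

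**Figure D4:**
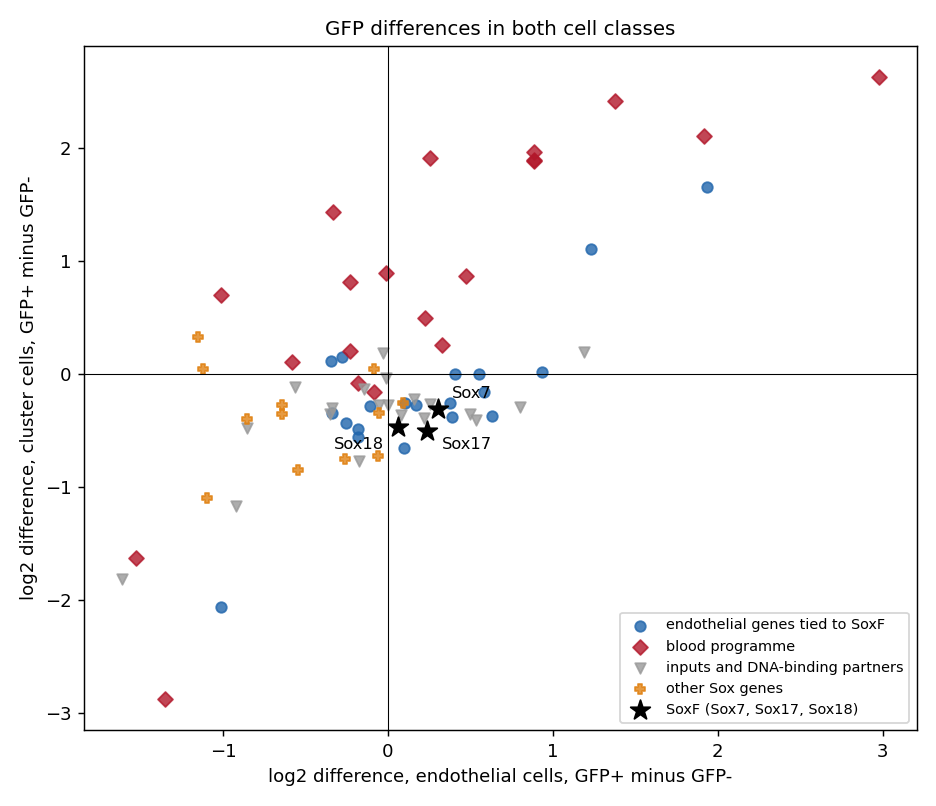
Log2 difference between GFP+ and GFP- endothelial cells (horizontal axis) and between GFP+ and GFP- cluster cells (vertical axis) for the SoxF genes (stars) and the 72 tested genes of 4 lists; each point is 1 gene. The SoxF genes lie to the right of 0 and below 0, at 0.30 and -0.31 for Sox7, 0.24 and -0.50 for Sox17, and 0.06 and -0.47 for Sox18, and blood programme genes spread toward the upper right.

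One alternative removed every SoxF call: after normexp background correction on the mean signals no member passed in any of the comparisons and standard errors ran from 0.16 to 0.37 on the log2 scale. That setting left few calls among all genes as well, 64 higher and 63 lower in GFP+ against GFP- cluster cells, against 2306 and 4089 by the processed signal. Under it the direction of every called SoxF difference was kept.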

How the data were processed

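The one-colour Agilent arrays held RNA of 4 sorted groups. Per the labels' protocols, each pool's RNA was divided into 2 fractions and amplified, and Cy3 labelling started with 50 ng. The deposited intensity columns come from Agilent Feature Extraction 10.10.1.1, per the file headers, and the processed signal among them had its background removed by that software. The authors' own normalized intensity table served as an alternative: it is linear, has a median of 198 per array and correlates at 0.997 to 1.000 with the scanner values (log2), and the sources used here do not say how it was normalized.

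The processed signal was put on a log2 scale relative to its 75th percentile on the same array, control probes aside. After flagged spots were dropped and replicate spots averaged, 43020 spots gave 39429 probes, and 10 of these lacked a value on at least 1 array. Gene symbols were updated through a RefSeq table of assembly GRCm38.p6, from which no coordinates were taken. Probes took them from RefSeq accessions (26055), from a symbol that is still current (3195) or from the array file as it stands (10179). A gene was read from its brightest probe and entered the test if that probe was well above background on the complete pair of arrays of some group. This kept 19543 genes. Where a gene was dim on the whole of a group, its fold is a bound, "at least N-fold", against the lowest signal counted as well above background.

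All 8 arrays entered 1 limma fit (limma 3.58.1 in R 4.3.3) with 4 group means and 4 residual degrees of freedom. The 7 contrasts were tested two-sided at 0.05 after Benjamini-Hochberg adjustment over all genes. Precision is limited by how few arrays there are.

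Genes named in the text are every SoxF probe, the 5 genes most alike to each member, Ly6a and Kit, every other Sox gene that passed, and from each list the 2 with the largest called change in each direction, counting genes measured above background in both groups, or all called ones where there were at most 5. Genes called in opposite directions in the 2 cell classes, and named markers, were added after their values were seen. The members and the lists were chosen with earlier results of these data known. Replicate numbers pair the arrays: deviations of same-numbered arrays from their group means correlated at 0.138 to 0.359 in every pair of groups, and each number is 1 slide. Alternatives covered background correction, normalization, the filter, the probe, the slide block, moderation, the groups fitted, each array left out and, added after seeing the data, scaling to endothelium markers. No promoter or protein sequence of the members was used here.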

Additional observations from a re-analysis of the deposited data

Results flagged for a closer look

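The results below were singled out because the GFP difference was called to differ between cluster and endothelial cells (limma, adjusted p under 0.05), each given as the log2 difference in cluster cells minus that in endothelial cells. Of all genes 31.1% were called in that test, and for genes that were dim in a group, Ikzf1, Spi1, Prox1 and Sry among them, the fitted value is no bound. Each value is from the gene's brightest probe. Another probe had the opposite sign for Efnb2 at 0.15, Notch1 at -0.96 and Runx1 at -0.02, none of them called (limma, adjusted p = 0.653, 0.199 and 0.896). For Maml2 another probe was called in the opposite direction, at 1.22 (limma, adjusted p = 0.00923). Other listed genes with further probes kept their direction, though not all of those probes were called.

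Among the SoxF genes the values were -0.74 for Sox17, -0.61 for Sox7 and -0.53 for Sox18. Among other Sox genes they were -0.49 for Sox11, -0.29 for Sox4, 0.46 for Sox1 and 1.48 for Sry.

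Among endothelial genes tied to SoxF the values were -1.05 for Prox1, -0.996 for Nr2f2, -0.92 for Tek, -0.77 for Notch4, -0.76 for Cldn5, -0.74 for Nrp1, -0.63 for Dll4, -0.55 for Vcam1, -0.45 for Hey1, -0.40 for Efnb2, -0.38 for Rasip1 and -0.35 for Acvrl1, and 0.43 for Mef2c and 0.46 for Notch1.

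Among inputs and partners they were -1.09 for Maml2, -0.998 for Vegfa, -0.94 for Foxc2, -0.84 for Foxo1, -0.60 for Elk3, -0.59 for Foxc1, -0.52 for Maml1, -0.44 for Tcf7l1, -0.38 for Ets2 and -0.27 for Hif1a.

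Among blood programme genes they were -1.52 for Klf1 and -0.35 for Gfi1, and 0.44 for Lmo2, 0.69 for Erg, 0.91 for Kit, 1.001 for Ptprc, 1.01 for Myb, 1.04 for Hlf, 1.05 for Itga2b, 1.08 for Runx1, 1.66 for Spi1, 1.715 for Gfi1b and 1.76 for Ikzf1.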

How the results depend on the processing

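Of 424 alternative values for the 21 SoxF results, 348 were counted as unchanged, 46 lost a call, 17 gained one and 13 turned direction. The causes were not tested. The 424 include the values within each slide alone, which have no p-value. Those counted as unchanged unless a called difference turned direction, so the 348 overstates how many kept their side of the threshold. All values are log2 differences from limma. After normexp no SoxF call was left. GFP+ against GFP- cluster cells then stood at -0.48 for Sox17, -0.42 for Sox18 and -0.34 for Sox7, and Sox7 in endothelial cells at 0.49. Cluster against endothelial cells with GFP stood at -0.57, -0.63 and -0.79 in the same gene order, and the interaction at -0.93, -0.80 and -0.83. GFP+ cluster against GFP- endothelial cells stood at -0.12, -0.25 and -0.30, and GFP- cluster against GFP+ endothelial cells at -0.21 for Sox18 and -0.45 for Sox7. Between the GFP- classes Sox18 turned to 0.17 and Sox7 to 0.04. Scaling to endothelium markers, chosen after seeing the data, ended the calls of Sox17 in cluster cells by GFP (-0.20) and the interaction (-0.35), of Sox18 in the interaction (-0.14) and in GFP+ cluster against GFP- endothelial cells (-0.019), and of Sox7 in cluster cells by GFP (-0.007), endothelial cells by GFP (0.21), the GFP+ classes (-0.20), the interaction (-0.22) and GFP- cluster against GFP+ endothelial cells (-0.20). It turned the GFP+ classes to 0.03 for Sox17 and 0.01 for Sox18, GFP+ cluster against GFP- endothelial cells to 0.18 for Sox17 and 0.006 for Sox7, GFP- cluster against GFP+ endothelial cells to 0.23 for Sox17 and 0.18 for Sox18, the GFP- classes to 0.15 for Sox18 and 0.013 for Sox7, and endothelial cells by GFP to -0.029 for Sox18, while Sox17 was called between the GFP- classes at 0.38. Quantile normalization and the authors' table each called Sox17 (0.34) and Sox18 (0.16) in endothelial cells by GFP, ended Sox17 in GFP+ cluster against GFP- endothelial cells (-0.20) and turned Sox18 between the GFP- classes (0.003). With no filter, or with only the groups compared, calls ended for Sox7 in cluster cells by GFP (-0.31), Sox17 in GFP+ cluster against GFP- endothelial cells (-0.35) and Sox18 in GFP- cluster against GFP+ endothelial cells (-0.14). Sox17 in endothelial cells by GFP (0.24) was called with only those groups, with probes above background on all arrays, with trended robust moderation and with the slide as a replicate block (adjusted p = 0.032), and the block changed no other SoxF call. Sox7 between the GFP- classes (-0.21) was called under the same filter and moderation. The mean of probes called Sox17 in endothelial cells by GFP (0.35) and in GFP- cluster against GFP+ endothelial cells (-0.23), as did its other probe (0.46 and -0.38). With each array left out in turn, Sox7 ranged from -0.37 to -0.24 in cluster cells by GFP and 0.29 to 0.32 in endothelial cells by GFP, Sox18 from -0.16 to -0.12 in GFP- cluster against GFP+ endothelial cells, and Sox17 from -0.46 to -0.24 in GFP+ cluster against GFP- endothelial cells and 0.18 to 0.30 in endothelial cells by GFP. Counts over all genes also moved. In GFP+ against GFP- cluster cells 2306 were higher and 4089 lower, against 64 and 63 after normexp, 7810 and 1206 scaled to endothelium markers, 2246 lower with no filter and 2685 lower with only those groups. In endothelial cells by GFP 3547 and 6518 became 58 and 42 after normexp. Between the GFP+ classes 5105 and 4732 became 99 and 37 after normexp, and 16181 and 594 by endothelium markers. Between the GFP- classes 2308 and 2422 became 10 and 4, 7024 and 414, 922 and 544 with no filter, and 1482 and 1094 with only those groups. In the interaction 3061 and 3019 became 0 and 1, 10418 and 736, and 1357 and 1386 with no filter. In GFP- cluster against GFP+ endothelial cells 6136 and 3064 became 65 and 70, and 13812 and 950, with 3888 higher by quantile and 3902 by the authors' table. In GFP+ cluster against GFP- endothelial cells 3744 and 6134 became 203 and 203, and 12912 and 1139. With 1 array left out, counts fell by over 1.5 times in 4 comparisons: to 962 to 1209 higher and 644 to 896 lower between the GFP- classes, 1739 to 2007 higher and 1841 to 1924 lower in the interaction, 1478 higher and 2197 to 2421 lower in cluster cells by GFP, and 3582 to 3948 higher and 1999 lower in GFP- cluster against GFP+ endothelial cells.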
